A study of Homo sapiens with 36 samples.

Results

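The 8 genes described here write, erase and read methylation of cytosine in DNA. They are the methyltransferases DNMT1, DNMT3A and DNMT3B, the cofactor DNMT3L, the dioxygenases TET1, TET2 and TET3, and UHRF1. They were taken by symbol from a table of 62710 genes, and each symbol matched 1 row. DNMT3L passed the filter on low counts in no comparison, and the other 7 passed in every comparison.

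DNMT1 copies methylation onto the new strand after replication, and UHRF1 brings it there by binding hemimethylated CpG sites. DNMT3A and DNMT3B methylate unmethylated sites, with DNMT3L, which has no catalytic activity, as a partner in germ cells and early embryonic cells. The TET enzymes oxidise 5-methylcytosine, which leads to its loss by dilution or by base excision. In pluripotent cells DNMT3B and TET1 are abundant, and DNMT3A and TET3 are known for their roles in neurons.

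The libraries came from H9, a human embryonic stem cell line, carrying RAI1 genotypes given as WT, heterozygous mutant (HET) and knockout (KO). RAI1 encodes a chromatin regulator. All groups carried NGN2, a proneural factor, under doxycycline control, and cells were harvested on days 0, 3 and 7 of its induction in Neurobasal-A with B27, GDNF, NT3 and CultureOne. The 9 groups had 4 libraries each, described as biological replicates, and all 36 shared 1 batch label. The alleles and the number of clones behind each genotype were not given in the sources used here, so p-values measure the spread between these libraries, and genotype and line cannot be told apart.

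RAI1 was not lower in the mutants, with means at day 0 of 33.5 ± 8.26 CPM (counts scaled by TMM to a common library size) for WT, 38.1 ± 7.84 for HET and 37.1 ± 12.3 for KO (SD, n = 4), so its counts do not check the genotype labels. At day 7 RAI1 was higher in KO than in WT, at 84.7 ± 14.2 against 52.4 ± 15.3 CPM (0.69 on the log2 scale, SE 0.22, edgeR adjusted p 0.030). Library totals ranged from 23.9 to 56.7 M counts. The labelled cell type was iNeuron on every day, but summed neuron markers were at 296 to 826 CPM on day 0, and pluripotency markers at 2343 to 5192 CPM. At day 7 the neuron markers summed to 7485 to 15245 CPM in WT, 16749 to 22384 in HET and 19526 to 26310 in KO. A list of 20 dividing-cell genes summed to 3045 to 4333 CPM on day 0. At day 3 it summed to 2576 to 4262 in WT, 2737 to 3676 in HET and 904 to 2181 in KO. At day 7 it summed to 175 to 455 in WT, 89.9 to 145 in HET and 89.6 to 95.7 in KO. In bulk RNA, fewer cells of a type and less RNA per cell cannot be told apart. Counts of 5 small structural RNAs took 4.02 to 6.45% of a library on day 0 but 2.84 to 27.5% on later days, and this share lowers the TPM of every other gene in the same library.

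By GENCODE 29 on GRCh38, UHRF1 (ENSG00000276043) lies at chr19:4903080-4962154 on the plus strand and DNMT1 (ENSG00000130816) at chr19:10133345-10231286 on the minus strand. DNMT3A (ENSG00000119772) lies at chr2:25227855-25342590, minus, and DNMT3B (ENSG00000088305) at chr20:32762385-32809356, plus. TET1 (ENSG00000138336) lies at chr10:68560656-68694482, TET2 (ENSG00000168769) at chr4:105145875-105279816 and TET3 (ENSG00000187605) at chr2:73986404-74108176, all plus. DNMT3L (ENSG00000142182) lies at chr21:44246339-44262216, minus. All are protein-coding, and counts are of whole genes. DNMT1 overlaps S1PR2 on its own strand, and TET2 and DNMT3L overlap antisense genes. Use of strand in counting was not given in the sources used here, so reads of these overlaps may be split.

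Promoter windows were available in RefSeq (GRCh38.p14; 250 bases before and 50 after a start site) for 7 of the 8 genes. The windows were searched on both strands for 4 words of E2F sites (TTTCCCGC, TTTCGCGC, TTTGCCGC and TTTGGCGC), since E2F factors drive genes of the S phase. Of 35116 windows in the whole set, 3.31% held such a word, and 3.99% of 27305 genes had a window with one. Among the members, 3 of 18 windows held one, and they belonged to DNMT1 and UHRF1. These letters were not in the windows of DNMT3A, DNMT3B, TET1, TET2 or TET3, which says nothing of E2F binding there. The stretches around the 3 matches are shown 5′ to 3′ on the gene's strand, with the word in capitals. They lie at chr19:10194937-10194966 (minus), chr19:4909476-4909505 (plus) and chr19:4909973-4910002 (plus).
DNMT1: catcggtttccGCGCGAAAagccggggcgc
UHRF1 upstream start site: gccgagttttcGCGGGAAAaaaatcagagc
UHRF1 downstream start site: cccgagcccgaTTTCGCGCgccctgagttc
The word began 2 bases before the start site in DNMT1, and 14 and 160 bases before the upstream and downstream UHRF1 start sites shown. UHRF1 also had a start site farther downstream than both, whose window (chr19:4910117-4910416) held no E2F word. For context, the 250 bases before the upstream UHRF1 start site (chr19:4909251-4909500, plus) are rich in CpG, and its window held 36 of them. The capitals again mark the E2F word.
UHRF1 promoter: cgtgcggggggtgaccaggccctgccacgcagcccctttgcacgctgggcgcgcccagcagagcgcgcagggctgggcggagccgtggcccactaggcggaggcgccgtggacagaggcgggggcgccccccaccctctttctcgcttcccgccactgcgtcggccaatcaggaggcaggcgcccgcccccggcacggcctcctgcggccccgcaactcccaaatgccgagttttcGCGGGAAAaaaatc
A match is a run of letters and no measurement of binding, and its part in any level was not tested. The single DNMT3B window (chr20:32779602-32779901) held 3 CpG. It lies inside the gene, whose GENCODE start is chr20:32762385, so the sequence at that start was not searched. The same holds for DNMT1, which starts at chr19:10231286 on the minus strand, and for UHRF1, which starts at chr19:4903080. No window covered the GENCODE start of TET1 or TET3 either. The octamer ATGCAAAT, found in 1.77% of all windows, was in no window of the members. The proneural E-box CAGATG, found in 14.7% of all windows, was in 1 member window. It was that of the UHRF1 start site with the E2F word 160 bases before it.

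The induction changed most members in every genotype. Levels are given in CPM, and changes as log2 differences with their SE from edgeR's quasi-likelihood test, called at a Benjamini-Hochberg adjusted p under 0.05 over all genes. In WT, 4 of the 7 tested members changed from day 0 to day 3 (1 higher, 3 lower; 60.0% of all genes were called, 31.2% higher and 28.7% lower) and 5 from day 3 to day 7 (2 higher, 3 lower; 46.2% of all genes, 23.3% higher and 22.9% lower). In HET these counts were 5 and 4, against 48.3% and 41.2% of all genes. In KO they were 6 and 4, against 59.3% and 47.8%. No test set the members apart from other genes, and their directions and timing differed from gene to gene.

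Fewer members differed between genotypes. At day 0, none of the 7 passed in KO against WT (2.08% of all genes did; 1 member had an unadjusted p under 0.05), in HET against WT (1.63%; 0 members) or in KO against HET (0.856%; 0 members). DESeq2 called none there either. At day 3, TET3 and UHRF1 differed between KO and WT, 2 of 7 against 21.6% of all genes, and no member differed between HET and WT (3.28%; 0 at an unadjusted p under 0.05, and 0 in DESeq2). At day 7, DNMT3B, TET3 and UHRF1 differed between KO and WT, 3 of 7 against 32.6%, and UHRF1 between HET and WT, 1 of 7 against 14.4%. KO and HET differed at no member on day 3 (4.35%; 2 at an unadjusted p under 0.05) or day 7 (1.40%; 1), and at none in DESeq2. The KO and HET comparisons share the same WT libraries.

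**Figure D1:**
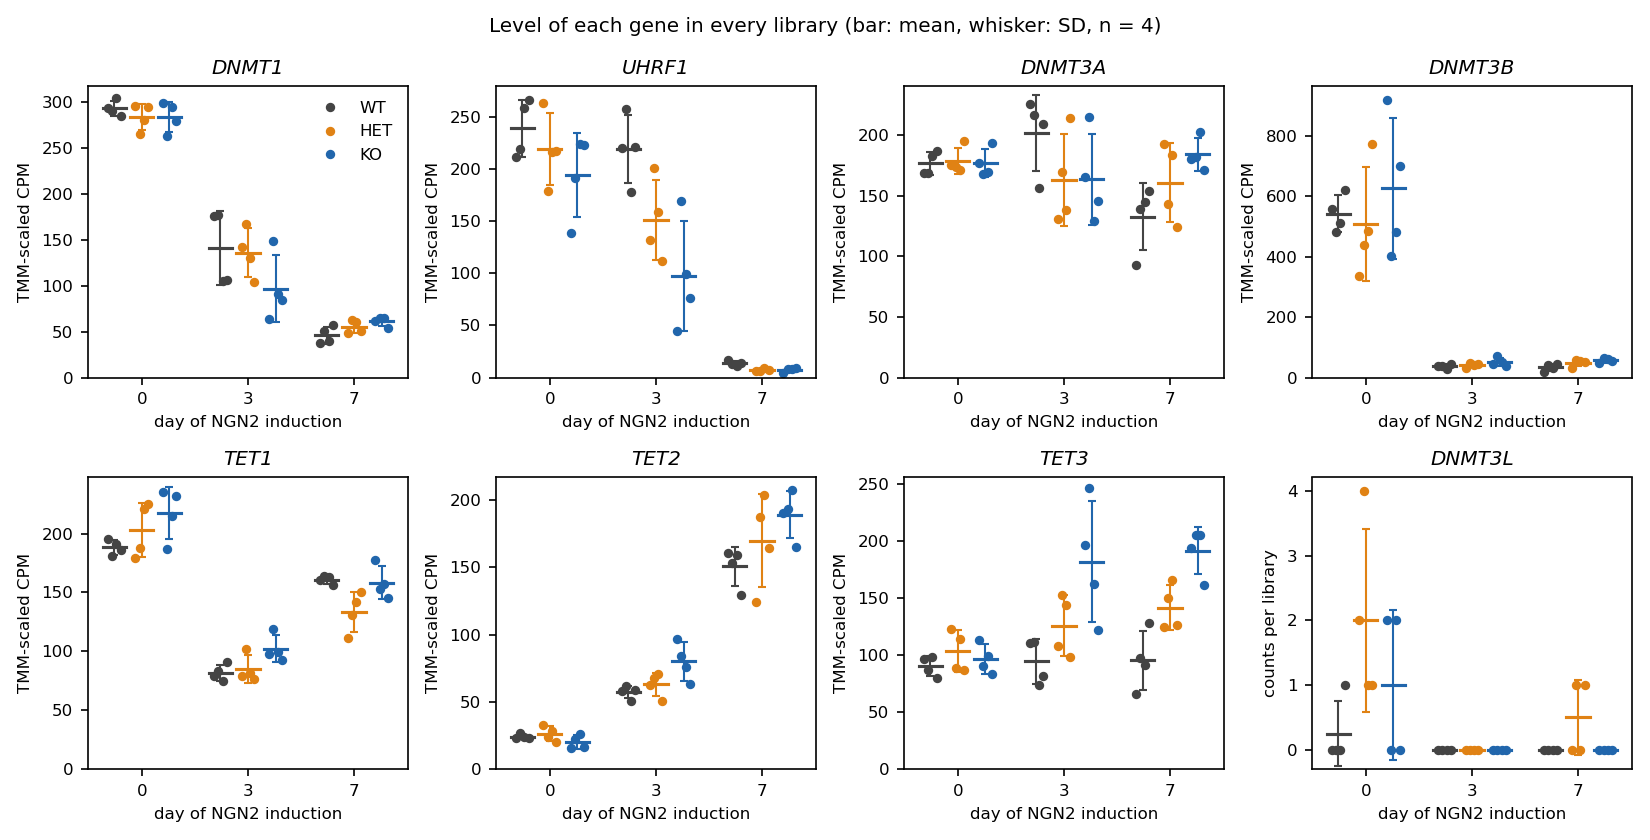
Level of each gene in every library by day of NGN2 induction (x axis) and genotype (colour), in TMM-scaled CPM on linear axes from 0, or in counts for DNMT3L; bars are means of 4 libraries and whiskers SDs. UHRF1 was at 178 to 257 CPM in WT and 44.8 to 169 in KO on day 3, TET3 was higher in KO on days 3 and 7, and DNMT3L never exceeded 4 counts.

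UHRF1, the reader that guides maintenance methylation, showed no called change in WT until day 3 on the scaled counts and then fell steeply. At day 0 the 4 WT libraries had 212, 219, 259 and 266 CPM, and at day 3 they had 220, 257, 178 and 221, a difference of -0.13 (SE 0.15, adjusted p 0.48). At day 7 they had 17.0, 13.0, 11.1 and 14.2 CPM, a fall by 3.98 from day 3 (SE 0.17, adjusted p 1.5e-09). The day 0 and day 3 libraries overlapped, and every day 7 library was far below both. The first step depended on the scale: on TPM, UHRF1 in WT was at 46.9 to 59.9 on day 0 and 14.9 to 37.8 on day 3, without overlap, a called fall by 1.10 (limma on log2(TPM + 1), adjusted p 0.0014), where the median of all genes fell by 0.38.

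UHRF1 was lower than WT in KO on day 3 and in both mutants on day 7. At day 3 the KO libraries had 44.8, 169, 99.6 and 76.2 CPM, 1.2 below WT on the log2 scale (2.29-fold) (SE 0.31, adjusted p 0.016). Every KO library was below every WT library, with replicate 2 nearest to them, and the call held when any 1 library was left out (adjusted p 0.0021 to 0.047). The HET libraries had 132, 201, 159 and 112 CPM, between the other groups and overlapping both; their difference from WT of -0.52 (SE 0.31, adjusted p 0.50) was not called, and neither was that of KO from HET (-0.67, SE 0.31, adjusted p 0.28).

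At day 7 UHRF1 was at 6.04, 6.43, 8.89 and 7.03 CPM in HET and at 4.34, 8.30, 8.64 and 8.82 in KO. Both groups lay below all WT libraries and overlapped each other. The differences from WT were -0.97 in HET (SE 0.24, adjusted p 0.018) and -0.88 in KO (SE 0.24, adjusted p 0.014). The HET call was lost without WT replicate 1 (adjusted p 0.052) or HET replicate 2 (0.056). On the deposited TPM (limma on log2(TPM + 1)) neither passed, at 0.044 in HET (adjusted p 0.91) and -0.19 in KO (0.79), and neither did KO at day 3 (-0.72, adjusted p 0.49). At day 7 UHRF1 was at 0.39 to 2.57 TPM in HET and 0.48 to 1.4 in KO, near the 1 added before the logarithm. The median of all genes was above WT in both mutants on that scale and day. Adding to the edgeR model each library's share of small structural RNAs kept all 3 of these UHRF1 calls.

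On the scaled counts UHRF1 also fell in the mutants in the early step. From day 0 to day 3 it was 1.03 lower in KO (SE 0.33, adjusted p 0.015), although the day 3 library of replicate 2 overlapped day 0, and 0.55 lower in HET (SE 0.20, adjusted p 0.033), a call lost in 6 of the 8 fits without 1 library. On TPM the steps were -1.50 in KO (limma adjusted p 0.013) and -1.24 in HET (0.056), beside the fall in WT on that scale. The day 0 libraries had 139 to 224 CPM in KO and 179 to 263 in HET. The test of whether this change differed from that in WT gave -0.87 for KO (SE 0.36, adjusted p 0.14) and -0.41 for HET (SE 0.36, adjusted p 0.91), so a difference in the change itself was not shown. Without KO day 3 replicate 2 the KO value was -1.29 (adjusted p 0.013).

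DNMT1, the maintenance methyltransferase, fell in both steps in every genotype on the scaled counts. On TPM the late step was not called in HET (-0.76, limma adjusted p 0.42) or KO (-0.82, 0.17). In WT it was at 294, 290, 304 and 285 CPM on day 0, at 176, 177, 105 and 106 on day 3 and at 37.7, 50.6, 39.4 and 57.1 on day 7. The falls were 1.06 (SE 0.20, adjusted p 0.0003) and 1.61 (SE 0.20, adjusted p 1.4e-05), with no overlap between days. On day 3 the WT libraries formed a high and a low pair, and the low pair, replicates 3 and 4, also had the larger small structural RNA shares, 19.6 and 18.1% against 10.4 and 8.99%.

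In KO, DNMT1 was at 64.1, 149, 90.5 and 84.2 CPM on day 3 and 61.6, 64.7, 65.4 and 54.5 on day 7. The day 3 libraries overlapped WT (difference -0.57, SE 0.26, adjusted p 0.14) and those of day 7 overlapped it too (0.41, SE 0.16, adjusted p 0.063). Without KO replicate 2 the day 3 difference was -0.83 (adjusted p 0.036) and its change from day 0 differed from that of WT by -0.79 (0.045), and without WT replicate 4 the day 7 difference had an adjusted p of 0.024. The late step was smaller in KO than in WT: DNMT1 fell by 0.60 in KO (SE 0.19, adjusted p 0.021), and the change from day 3 to day 7 differed by 0.96 (SE 0.27, adjusted p 0.011), which was not called on TPM. That was 1 of 2 members for which this difference was called, against 18.5% of all genes. The KO fall itself was not called without KO day 3 replicate 2 (adjusted p 0.053) or KO day 7 replicate 4 (0.061). In HET, DNMT1 was at 104 to 168 CPM on day 3 and 49.0 to 62.3 on day 7, and it differed from WT on neither day.

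The levels of both genes can be set against the 20 dividing-cell genes, with none of the list at 0. Of the 20, 16 were lower in KO at day 3, 18 in KO at day 7 and 17 in HET at day 7. The shares of all genes called in these comparisons were 21.6%, 32.6% and 14.4%. Per 1000 CPM of that list, UHRF1 was at 62.9 ± 4.72 CPM in WT and 56.4 ± 15.2 in KO on day 3 (SD, n = 4), and at 54.7 ± 13.2 and 81.5 ± 23.6 on day 7. Over the 9 groups this mean lay between 46.6 (HET, day 3) and 81.5 (KO, day 7), while the UHRF1 level itself went from 239 to 7.10 CPM. The HET libraries of day 3, at 36.3 to 54.8 per 1000, were all below those of WT, at 58.2 to 69.0. Of the 20 dividing-cell genes, 0 were called between HET and WT on that day. The DNMT1 ratio varied more between groups: it was at 73.2 ± 4.29 per 1000 in WT on day 0, 39.9 ± 6.58 on day 3 and 194 ± 78.8 on day 7. At day 7 it reached 540 ± 161 in HET and 667 ± 71.9 in KO. These ratios are descriptions with no test, and the part of the dividing-cell genes in the differences between genotypes was not tested.

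**Figure D2:**
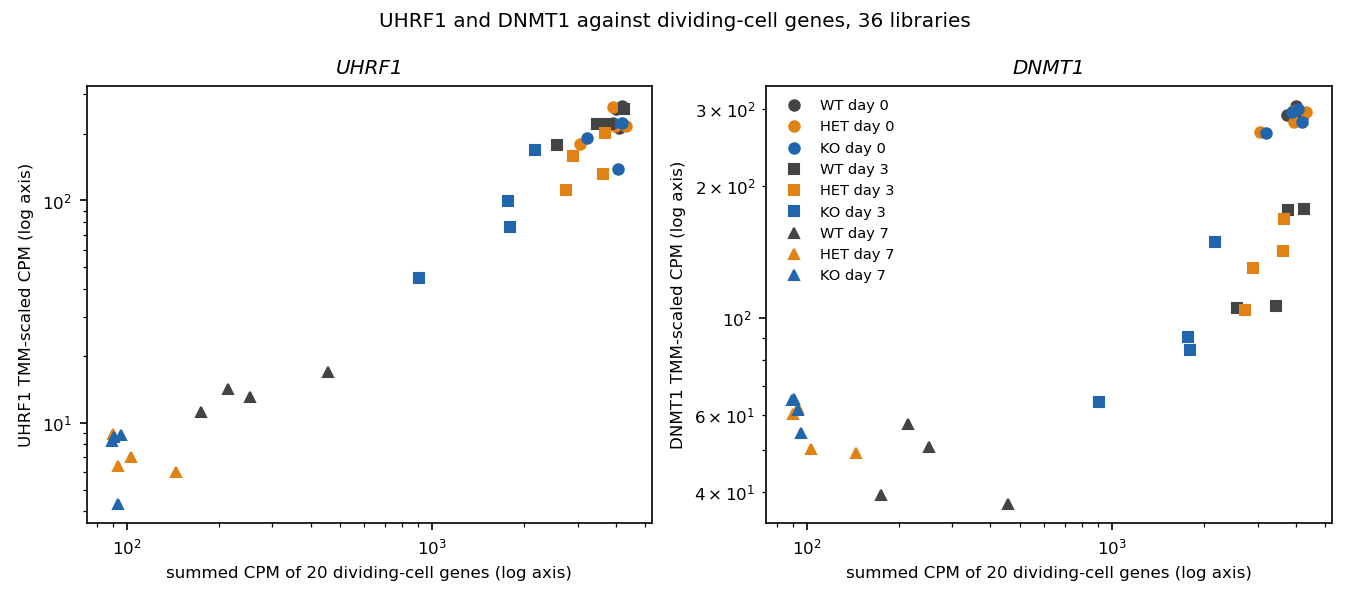
UHRF1 (left) and DNMT1 (right) in TMM-scaled CPM against the summed CPM of 20 dividing-cell genes, both on log axes, with 1 point per library; colour gives the genotype and shape the day. UHRF1 falls along with the sum over all days, whereas DNMT1 levels off at 37.7 to 65.4 CPM on day 7 while the sum falls from 455 to 89.6.

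DNMT3B, the de novo enzyme of pluripotent cells, fell by the largest amount of the members in the first step and then stayed low. In WT it was at 556, 483, 511 and 620 CPM on day 0 and at 37.2, 39.7, 29.0 and 43.8 on day 3, a fall by 3.86 (SE 0.25, adjusted p 1.5e-08), or 14.6-fold. It fell by 3.61 in HET (SE 0.29, adjusted p 9.3e-07) and 3.63 in KO (SE 0.27, adjusted p 8.4e-08). Day 0 levels varied between libraries of the mutants, from 336 to 774 CPM in HET and from 402 to 920 in KO. From day 3 to day 7 no genotype showed a called change.

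At day 7 DNMT3B was at 19.0, 40.6, 31.7 and 46.0 CPM in WT, 31.9, 57.7, 55.1 and 53.2 in HET and 47.3, 64.7, 62.2 and 55.6 in KO. Every KO library was above every WT library, and HET overlapped both. KO was 0.74 above WT (SE 0.26, adjusted p 0.041), and the HET difference of 0.52 (SE 0.26, adjusted p 0.20) was not called (0.65 and 0.048 without HET replicate 1). The KO call was weak: it was lost without WT replicate 1 or 3 or any KO replicate (adjusted p 0.055 to 0.10 in these 6 fits). It was also lost with library size alone as the scaling (0.079) and in the model that held each library's structural RNA share (0.43, adjusted p 0.14). The pluripotency markers summed to 107 to 133 CPM in WT and 287 to 353 in KO on day 7. Of the 10 markers 4 were tested there, and TDGF1 was at 0 in all 4 WT libraries. LIN28A and PRDM14 were higher in KO and SALL4 and DPPA4 lower (32.6% of all genes were called). LIN28A, at 248 CPM in KO and 23.8 in WT, made up most of the KO sum. Its part in the DNMT3B difference was not tested.

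DNMT3A, the de novo enzyme that remains active in neurons, had no called change in the first step in any genotype. In WT it was at 169, 169, 183 and 187 CPM on day 0, 226, 217, 156 and 209 on day 3 and 92.4, 139, 145 and 154 on day 7. The first step was not called (0.19, SE 0.16, adjusted p 0.33), and the second was a fall by 0.60 (SE 0.16, adjusted p 0.0073). On TPM the first step became a called fall, at -0.89 (limma adjusted p 0.0098), on a scale where the median of all genes fell by 0.38. In KO, DNMT3A was at 165, 215, 129 and 145 CPM on day 3 and 180, 182, 203 and 171 on day 7, which was no called change (0.22, SE 0.14, adjusted p 0.23; 0.36 and 0.029 without KO day 3 replicate 2). Its change from day 3 to day 7 differed from that of WT by 0.78 (SE 0.24, adjusted p 0.019), a difference that missed the threshold without WT day 7 replicate 1 (adjusted p 0.052) and on TPM. At day 7 all KO libraries were above all WT libraries, but the difference of 0.47 (SE 0.19, adjusted p 0.067) was not called.

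DNMT3L, the catalytically inactive partner, was at or near the floor of 3 counts. It had 0, 0, 0 and 1 counts in WT at day 0, 2, 4, 1 and 1 in HET and 2, 0, 2 and 0 in KO. All 12 libraries of day 3 had 0 counts, and on day 7 only 2 HET libraries had any, with 1 count each. No difference was detectable at this depth.

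TET1, the eraser of pluripotent cells, fell and then rose in part. In WT it was at 195, 181, 191 and 186 CPM on day 0, 79.4, 83.3, 74.5 and 90.5 on day 3 and 160, 164, 163 and 156 on day 7. The fall was 1.2 (SE 0.10, adjusted p 2.5e-07) and the rise 0.97 (SE 0.10, adjusted p 3.3e-06), with no overlap between days, and the day 7 libraries stayed below those of day 0. HET and KO went the same way, falling by 1.27 and 1.11 and rising by 0.66 and 0.68, all called in edgeR. On TPM the falls were called in every genotype, but the rises were not, at 0.48 in WT (limma adjusted p 0.11), 0.77 in HET (0.38) and 0.22 in KO (0.72). In KO, TET1 was above WT in all libraries on day 3 (92.8 to 119 CPM), but the difference of 0.30 (SE 0.14, adjusted p 0.15) was not called. At day 7 HET was at 111 to 150 CPM, below all WT libraries, and the difference of -0.28 (SE 0.13, adjusted p 0.18) was not called either.

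TET2 rose at both steps in every genotype on the scaled counts. In WT it was at 23.3, 26.7, 23.5 and 23.2 CPM on day 0, 57.9, 61.8, 50.8 and 59.2 on day 3 and 161, 154, 159 and 130 on day 7. The rises were 1.24 (SE 0.12, adjusted p 5.3e-07) and 1.39 (SE 0.12, adjusted p 3.2e-07). HET rose by 1.25 and 1.44, and KO by 1.97 and 1.29. On TPM the calls that held were the second step in WT (0.97, limma adjusted p 0.0036) and the first in KO (1.37, 0.011). The first step was not called there in WT (0.41, 0.12) or HET (0.66, 0.38), nor was the second in HET (1.55, 0.063) or KO (0.97, 0.091). The KO libraries of day 3 had 97.0, 84.1, 76.1 and 63.0 CPM, all above WT, and the difference of 0.46 (SE 0.16) had an adjusted p of 0.051. With DESeq2 size factors in edgeR the adjusted p was 0.046, in DESeq2 0.023, and without KO replicate 4 0.017. The change from day 0 to day 3 was larger in KO than in WT by 0.74 (SE 0.24, adjusted p 0.045), the 1 member for which this difference was called, against 8.55% of all genes. That call was lost in 14 of 16 fits without 1 library (adjusted p up to 0.15) and on TPM. In HET the change differed from WT at no member in either step, against 0.271% and 4.74% of all genes; 0 and 1 members had an unadjusted p under 0.05, and DESeq2 called none.

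TET3 showed no called change over time in WT and, on the scaled counts, rose in KO. In WT it was at 96.3, 87.3, 98.4 and 79.6 CPM on day 0, 111, 112, 74.1 and 81.8 on day 3 and 65.8, 97.1, 91.0 and 128 on day 7. Neither step was called (0.06 and 0.02, SE 0.19 each). In KO it was at 113, 90.2, 99.6 and 83.7 CPM on day 0, 197, 247, 163 and 122 on day 3 and 194, 206, 205 and 162 on day 7. The KO libraries overlapped WT on day 0 and were all above it on days 3 and 7. The rise in KO to day 3 was 0.89 (SE 0.19, adjusted p 0.00099), and on TPM it was 0.39 and not called (limma adjusted p 0.51). The difference between KO and WT was 0.92 on day 3 (SE 0.23, adjusted p 0.011), or 1.90-fold, and 1.00 on day 7 (SE 0.19, adjusted p 0.0018), or 2.01-fold.

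TET3 in HET lay between these groups by its means and overlapped both, at 108, 153, 145 and 98.9 CPM on day 3 and 125, 150, 166 and 126 on day 7. The differences from WT of 0.43 (SE 0.23, adjusted p 0.43) and 0.56 (SE 0.19, adjusted p 0.065) were not called; the latter had an adjusted p of 0.038 in DESeq2, and 0.022 and 0.032 without WT replicate 4 or HET replicate 1. Leaving out any 1 library kept both KO calls. On TPM they did not pass, at 1.15 (limma adjusted p 0.26) and 1.13 (0.21), and the median of all genes was also higher in KO on that scale. The change from day 0 to day 3 differed between KO and WT by 0.85 (SE 0.28, adjusted p 0.051), and passed without WT day 3 replicate 2 (0.045) or KO day 3 replicate 4 (0.013). KO day 3 replicate 2, the library with the most TET3, DNMT1, UHRF1 and DNMT3A of its group, had the smallest share of small structural RNAs of that group (3.54%). Neuron markers, none at 0, were also higher in KO than in WT. In KO 13 of 14 were higher on day 3 (21.6% of all genes were called) and 9 of 14 on day 7 (32.6%). Their sum was 1518 to 1907 CPM in WT and 6087 to 10003 in KO on day 3. In HET, where TET3 was not called, 7 of 14 were higher on day 3 (3.28% of all genes were called) and 8 on day 7 (14.4%). Within WT their sum went from 296 to 594 CPM on day 0 to 7485 to 15245 on day 7, with no called TET3 change. Their part in the TET3 difference was not tested.

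**Figure D3:**
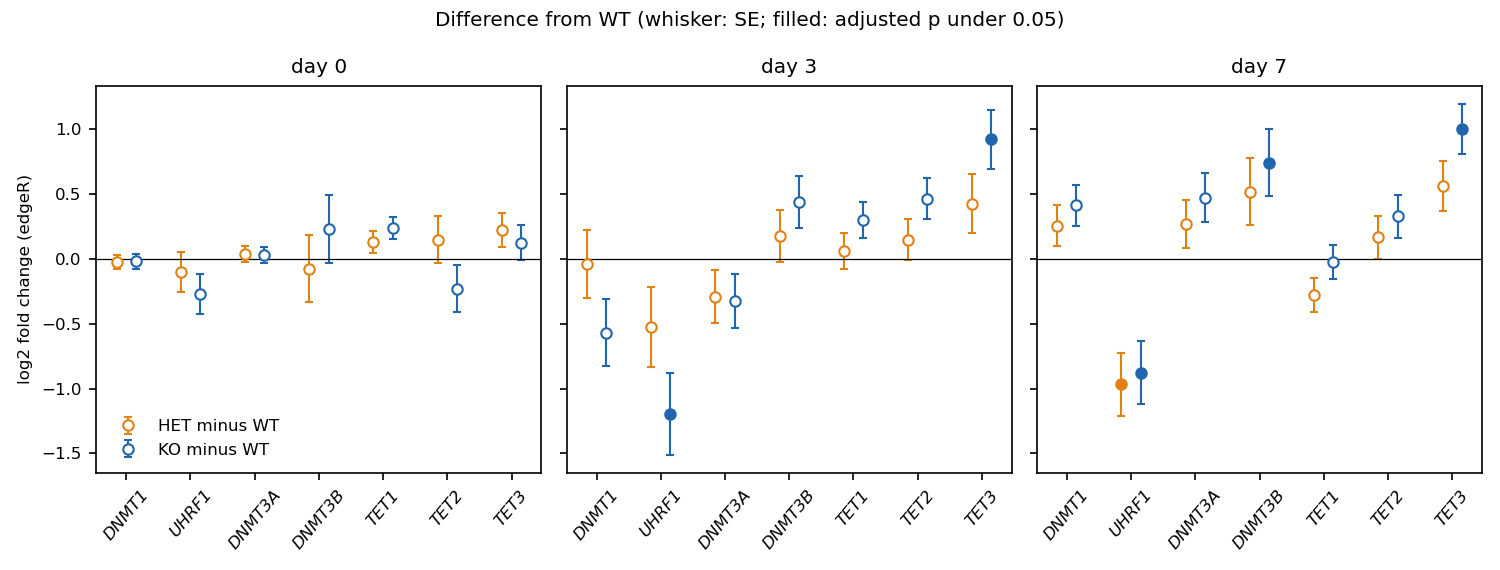
Difference of HET and KO from WT in log2 units on days 0, 3 and 7 for the 7 tested genes; whiskers are SEs and filled symbols passed an edgeR adjusted p of 0.05. The filled points are UHRF1 and TET3 in KO on days 3 and 7, DNMT3B in KO on day 7 and UHRF1 in HET on day 7, and both genotypes use the same WT libraries.

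By their ranges, 4 of the 7 members (TET1, TET2 and TET3 higher, UHRF1 lower) did not overlap between KO and WT at day 3, against 25.0% of all genes. At day 7 these were 5 (DNMT3A, DNMT3B, TET2 and TET3 higher, UHRF1 lower), against 40.0%. Between HET and WT at day 7 they were TET1 and UHRF1, both lower, 2 of 7 against 14.9%. The median difference between KO and WT over the 7 members was 0.30 on day 3 and 0.41 on day 7, with medians over all tested genes of -0.05 and -0.04.

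Levels per transcript length, in TPM, show which family member led in each library. Among the methyltransferases, DNMT3B made up 55.0% ± 2.88 of the summed TPM in WT on day 0 (SD, n = 4), DNMT1 26.7% ± 2.51 and DNMT3A 18.3% ± 1.21. On day 3 DNMT3A held 51.6% ± 4.13, DNMT1 36.6% ± 5.58 and DNMT3B 11.7% ± 1.47. On day 7 DNMT3A held 57.9% ± 3.12, with DNMT3B at 21.6% ± 3.06 and DNMT1 at 20.4% ± 4.31. DNMT3B had the highest TPM of all 8 genes in all 12 libraries of day 0, and DNMT3A in all 12 of day 7. On day 3 DNMT3A led in all 4 KO libraries, in 2 of 4 WT libraries and in 1 of 4 HET libraries, the others being led by UHRF1 or DNMT1.

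On day 3 the balance of the de novo enzymes lay nearer to DNMT3B in the mutants than in WT. The log2 ratio of DNMT3A to DNMT3B was 2.14 ± 0.07 in the WT libraries (SD, n = 4), 1.53 ± 0.18 in the HET and 1.38 ± 0.37 in the KO libraries, and no mutant library reached the lowest WT value of 2.05. On day 7 it was 1.43 ± 0.22 in WT and 0.91 ± 0.16 in KO, and 1.01 ± 0.76 in HET, which overlapped WT. The log2 ratio of UHRF1 to DNMT1 was -1.71 ± 0.21 in WT on day 7, and lower in every HET library (-3.22 ± 0.17) and every KO library (-3.05 ± 0.62). A ratio within a library does not depend on its scaling and was given no test.

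Among the TET genes TET1 led on day 0, at 64.1% ± 1.59 of the family's TPM in WT, with TET3 at 26.5% ± 1.52 and TET2 at 9.44% ± 0.75. On day 3 the 3 were nearly level in WT, at 32.1 to 35.6%, and in KO TET3 held 43.3% ± 4.28. On day 7 TET2 led in every group, at 48.2% ± 4.96 in WT, 48.9% ± 2.61 in HET and 47.2% ± 1.46 in KO. TET3 held 19.7% ± 5.18 in WT, 25.5% ± 3.01 in HET and 27.6% ± 1.13 in KO on that day. The log2 ratio of TET3 to TET1 was -0.74 ± 0.38 in WT and 0.14 ± 0.18 in KO, with no overlap.

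**Figure D4:**
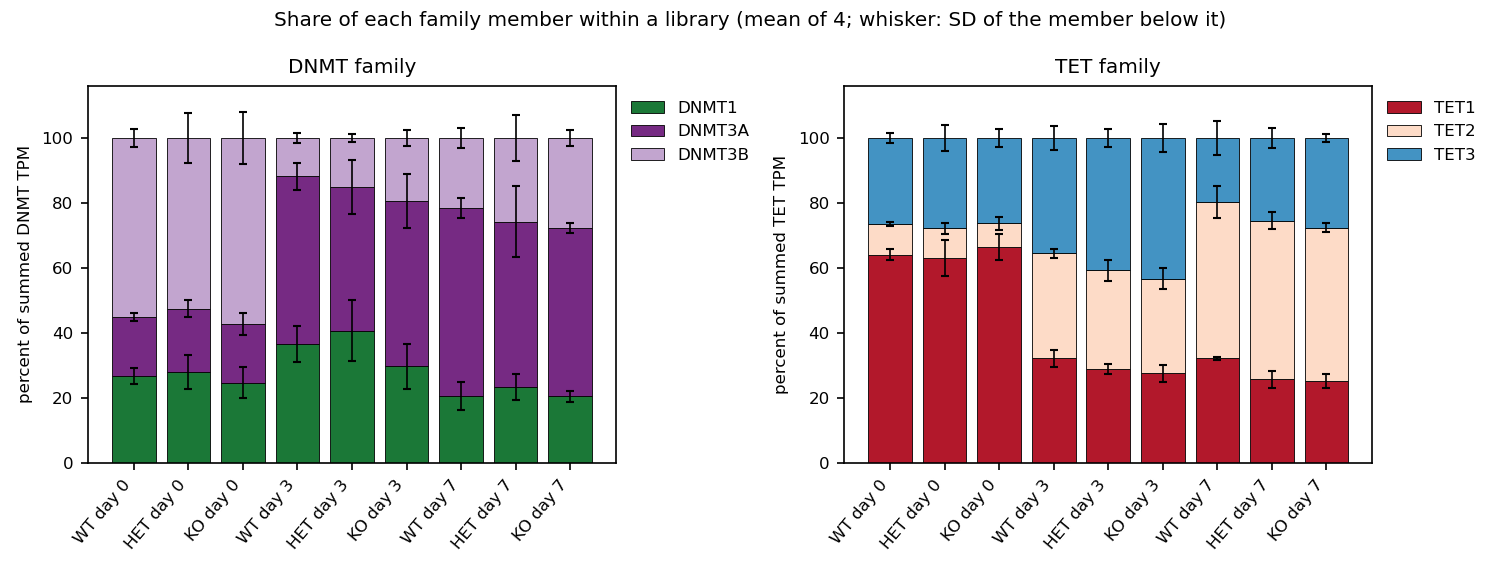
Share of each gene in the summed TPM of the DNMT family (left) and the TET family (right), as means of 4 libraries for each genotype and day; a whisker at the top of a segment is the SD of that segment. DNMT3B leads on day 0 and DNMT3A on day 7, while the TET family passes from TET1 to TET2. The mean TET3 segment is larger in KO than in WT on days 3 and 7, although their libraries overlap on both days.

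Genes that work with the members were described by lists. On day 0 no gene of these lists was called in either mutant, and on day 3 none in HET. Of 12 tested cofactors of maintenance and de novo methylation, 11 fell in WT from day 0 to day 3 (28.7% of all genes fell), among them CDCA7, which targets the remodeller HELLS, by 1.54 (SE 0.17). From day 3 to day 7, 5 fell and 1 rose (22.9% and 23.3% of all genes); the replication clamp PCNA fell by 3.30 (SE 0.15) and HELLS by 2.94 (SE 0.17). In KO at day 3, 4 of the 12 were lower than in WT and none higher (21.6% of all genes were called): HELLS, PCNA at 69.1 against 201 CPM, CDCA7 at 9.13 against 27.3 and CDCA7L at 17.3 against 57.6. In KO at day 7, 2 of the 12 were lower and 0 higher, where 32.6% of all genes were called. They were CDCA7 (-1.71, SE 0.25, edgeR adjusted p 0.0004) and CDCA7L (-4.14, SE 0.43, adjusted p 4.6e-05). In HET at day 7 CDCA7L alone was called (-2.59, SE 0.40, edgeR adjusted p 0.0015), 1 of 12 against 14.4% of all genes. The median difference over the 12 was -0.09 in KO at day 3 and -0.11 at day 7, against -0.05 and -0.04 over all genes.

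The methyl donor cycle makes S-adenosylmethionine and clears its product. Of 12 tested genes, 9 fell and none rose in WT from day 3 to day 7 (22.9% and 23.3% of all genes). In KO at day 3, 5 were lower and none higher (21.6% of all genes were called), among them the folate enzymes SHMT1 (8.13 against 30.1 CPM; -1.91, SE 0.23), SHMT2 (-1.21, SE 0.22) and TYMS (-1.39, SE 0.25). In KO at day 7, 4 of 12 were lower, a share near the 32.6% of all genes called, including AHCY, which hydrolyses S-adenosylhomocysteine, at 67.2 against 250 CPM (-1.89, SE 0.29, adjusted p 0.00048), MAT2B (-0.95, SE 0.17) and MTHFD1 (-0.48, SE 0.17). AHCY was the 1 gene called in HET at day 7 (100.02 CPM; -1.33, SE 0.28, adjusted p 0.0087). The median over the list was -0.48 in KO at day 3 and -0.38 at day 7, where dividing-cell genes were also lower.

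A further list was compiled as readers of methylated CpG, and binding by the proteins of its genes was not measured. In it MBD5 was higher in KO at day 3 (54.9 against 37.7 CPM, a difference of 0.52, SE 0.13, edgeR adjusted p 0.0093). Of all genes 21.6% were called in that comparison, and 32.6% in KO at day 7. In KO at day 7, ZBTB38, a zinc finger protein, was higher (23.1 against 6.60 CPM; 1.80, SE 0.41, adjusted p 0.0051) and MBD2 was lower (20.6 against 29.7 CPM; -0.53, SE 0.18, adjusted p 0.034). In WT, ZBTB38 fell by 2.35 from day 0 to day 3 (SE 0.22), and MBD5 rose by 0.40 in that step (SE 0.12).

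Of 14 genes of base excision and active demethylation, 2 were higher and 4 lower in KO at day 3 (21.6% of all genes were called), and 1 higher and 4 lower at day 7, a share near the 32.6% of all genes. IDH2, whose product 2-oxoglutarate is the TET cosubstrate, was at 200 CPM in KO and 359 in WT on day 3 (-0.86, SE 0.21, adjusted p 0.0092). IDH1, which makes the same product in the cytosol, was at 319 CPM in KO, 278 in HET and 155 in WT on day 7 (1.05, SE 0.18, and 0.84, SE 0.18). In WT, IDH2 first rose by 2.27 to day 3 (SE 0.14) and then fell by 1.54 (SE 0.14). The endonuclease APEX1 was lower on day 7 in KO (-0.65, SE 0.16) and HET (-0.59, SE 0.16). Of the 14 genes, 1 was higher and 2 were lower in HET at day 7 (14.4% of all genes were called).

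Of 8 other proteins with a CXXC domain, which binds unmethylated CpG, 3 were called in KO at day 3 (21.6% of all genes were). CXXC4 (0.72, SE 0.18) and KDM2B (0.50, SE 0.14) were higher and CXXC1 lower (-0.44, SE 0.12). FBXL19 was the 1 gene called at day 7, in KO (122 against 59.4 CPM, 1.04, SE 0.21) and in HET (97.5 CPM, 0.71, SE 0.21). That is 1 of 8 in each, where 32.6% and 14.4% of all genes were called. Of 12 germline genes whose promoters are methylated in somatic cells, 4 were expressed enough to be tested between genotypes. Of these 4, 1, PIWIL2, was lower in KO at day 7 (32.6% of all genes were called). TEX15, a germline gene of the list, fell in WT by 1.43 to day 3 (SE 0.29) and by 1.03 to day 7 (SE 0.29).

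The genes whose pattern over the 9 group means of log2(CPM + 1) was most like each member's were taken from 12008 genes. For UHRF1 they were NCAPD2 (Pearson r 0.998), a condensin subunit, ALDH6A1 (0.998) and FANCI (0.998), a DNA crosslink repair protein. For DNMT1 they were PAICS (0.998), a purine synthesis enzyme, PRPF19 (0.997) and CSE1L (0.997), and for DNMT3B TXLNG (0.999), RBM19 (0.996) and E2F3 (0.996). For TET2 they were PINK1 (0.999), MAB21L1 (0.996) and CYB5R1 (0.996), and for TET1 B3GALT1 (0.980), NORAD (0.976) and SEMA4B (0.976). The best matches of TET3, USP15 (0.964), TOP2B (0.955) and RAB10 (0.952), and of DNMT3A, VASH2 (0.902), SIK2 (0.890) and ADCY3 (0.889), were less close. Among the members themselves, DNMT1 and TET2 were opposite (r -0.98) and DNMT1 and UHRF1 alike (0.89). These values describe 9 means that share their days of induction and carry no p.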

How the data were processed

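The authors deposited expected counts per gene (whole numbers in every cell), TPM and FPKM for 36 libraries of rRNA-depleted total RNA read as 151 bp pairs. The submitters' processing notes name GRCh38, cutadapt 4.8, FastQC 0.11.8, MultiQC 1.20, STAR 2.7.8a and RSEM 1.3.3; annotation release and use of strand were not given in the sources used here. Of 62710 gene identifiers 58274 matched GENCODE 29. Tests ran on the counts over all genes with edgeR 4.0.16 in R 4.3.3 (TMM, filterByExpr, quasi-likelihood, Benjamini-Hochberg adjusted p under 0.05): genotypes within a day (12 libraries), days within a genotype (12), and differences of change (36). The scripts were tested on simulated data. TPM gave levels per length and ratios, and FPKM ratios were a check. Alternatives used DESeq2 1.42.0 and limma 3.58.1. A count of 3 was the floor.

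The members and lists were chosen with earlier results of these data known. All members were named; of each list up to 3 called genes with the smallest adjusted p and a mean of at least 5 CPM in the higher group; and for each member the 3 most similar genes. The list of methyl-CpG readers is given in part, since 1 of its genes is not reported here. Others named (counts of 5 or fewer, and LIN28A, PRDM14, SALL4, DPPA4 and TDGF1) were chosen after their values were seen.

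In 2 comparisons every pair of same-numbered libraries deviated together (r over 0.1). These were KO against WT on day 0, with r from 0.18 to 0.45, and HET against WT on day 3, with r from 0.12 to 0.66. With the replicate block, 0 members were called in either.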

Additional observations from a re-analysis of the deposited data

Results flagged for a closer look

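DNMT3A was at 195 CPM in HET day 0 replicate 4, against 171 to 175 in the other 3 libraries. TET2 was at 26.7 CPM in WT day 0 replicate 2, against 23.2 to 23.5. Replicate 1 of KO on day 7 had 4.34 CPM of UHRF1, where its group otherwise had 8.30 to 8.82. Each gap was above Dixon's 95% critical value for 4 samples. Of 63 groups of 4 tested, 3 had such a library, where chance gives 3.15.

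By an edgeR test of the difference between changes, KO departed from WT at TET2 from day 0 to day 3 (0.74 log2, adjusted p 0.045) and at DNMT1 (0.96, adjusted p 0.011) and DNMT3A (0.78, adjusted p 0.019) from day 3 to day 7. Of all genes 8.55% were called for the first step and 18.5% for the second. The TET2 call was lost in 14 of 16 fits without 1 library and the DNMT3A call in 1 of 16. None of these calls held on TPM.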

How the results depend on the processing

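The fits on TPM departed most from the main ones. They changed the values, their scaling and the test together, so the part of each cannot be told apart. In limma on log2(TPM + 1) or log2(TPM + 0.1), 0 members were called between KO and WT at day 3 and day 7, between HET and WT at day 7 and in both KO changes over time. On these scales 3 were called for HET from day 0 to 3, and 1 for HET and 1 for KO from day 3 to 7. With log2(TPM + 1), UHRF1 in HET at day 7 was 0.044. DNMT3A in WT from day 0 to 3 was -0.89 (-0.92 with log2(TPM + 0.1)), and in KO from day 3 to 7 it was -0.33 on both. The median of all genes moved on log2(TPM + 1) to 0.20 (KO, day 3), 0.18 (KO, day 7), 0.46 (HET, day 7) and -0.38 (WT, day 0 to 3). The share of calls that were higher went to 85.9% in KO at day 3 (58.6% on counts) and 14.7% in WT from day 0 to 3 (52.0%). TMM against DESeq2 size factors kept 51 of 52 member effects on their side of the threshold.

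DESeq2 called 5 members for KO at day 7, 2 for HET at day 7 and 2 for the KO change from day 0 to 3. For that change library size alone, leaving out the small structural RNAs and no filter each gave 0. The fit on all 36 libraries called 5 for KO at day 3 and 2 for HET at day 7. A model with each library's structural RNA share, chosen after seeing the data, gave 1 for KO against HET at day 3.

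With the replicate block, 4 members were called for KO at day 3 (DNMT1 and TET2 as well, adjusted p 0.030 and 0.023), 1 for KO against HET at day 3 (UHRF1, 0.048) and 2 for the KO change from day 0 to 3 (TET3 as well, 0.041). Every other count was unchanged by the block. All pairs had r over 0.1 in 2 comparisons only, KO against WT at day 0 and HET against WT at day 3. There 8 and 7 of 8 libraries correlated best with their own number. For KO against WT at day 3 and day 7 these were 5 and 4 of 8, and 3 and 2 of 4 pairs had r over 0.1. Pairing was thus partial there, and the main test leaves it out.

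Without 1 library, the count for KO was 2 to 3 at day 3 and 2 to 4 at day 7, and for HET at day 7 0 to 3. It was 4 to 5 for HET from day 0 to 3, 3 to 4 for KO from day 3 to 7, 0 to 2 for the KO change from day 0 to 3 and 1 to 2 for that from day 3 to 7. Depth limits DNMT3L.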
